A study of Mus musculus with 8 samples.

Results

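The 10 calcium-binding genes of neurons described here fall into 3 groups by role: the cytosolic buffers Calb1 (calbindin), Calb2 (calretinin) and Pvalb (parvalbumin), the N-terminal EF-hand proteins Necab1 and Necab2, and the calcium sensors Hpca (hippocalcin), Hpcal1, Hpcal4, Ncald (neurocalcin delta) and Vsnl1 (visinin-like 1). They were taken by name, as every non-control array probe whose accession belongs to these genes in RefSeq, which gave 15 probes. All 15 passed the filter on dim probes, and the 10 genes stand among 21116 features tested (genes or unnamed transcripts, 1 probe each) and the 15 probes among 25783 probes tested. RNA came from dissociated mouse hippocampal neurons, kept 10 days in culture, given a lentivirus carrying Flag-Nr4a1 or GFP and kept for 6 more days. Nr4a1 is an activity-induced orphan nuclear receptor, and the series asks how it bears on dendritic spines and excitatory synapses. Each group has 4 arrays, and the labels tie each Nr4a1-labelled array to a GFP-labelled array by a pair tag, with replicate 4 as the whole of batch 2. The labels used here give no strain, no age, no promoter of the virus and no statement that replicates are separate cultures, so p-values reflect only how these samples vary, perhaps for technical reasons.

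On every array the culture's RNA was labelled with Cy5 and a common mouse reference RNA with Cy3, with no dye swap, so a level here is the log2 ratio of culture over reference and a difference is Nr4a1-labelled minus GFP-labelled on that log2 scale (SE from limma, n = 4 per group). Median Cy5 signals of the 8 arrays ran from 137 to 194, lowest in batch 2 (138 and 137), with 0 saturated spots. Between 60.9% and 69.2% of an array's spots were well above background in Cy5. Slide 1 carried all 4 GFP-labelled arrays, slide 2 carried the Nr4a1-labelled replicates 1 to 3, and slide 3 carried replicate 4. No slide held both groups, so slide and group cannot be told apart. Fitting slide as a random block, a setting given below, cannot separate them either, and calls lost there decide nothing about a single gene. The delivered gene did not pass the test: the only Nr4a1 probe was higher by 0.30 ± 0.15 (adjusted p = 0.193, limma), and its level on Nr4a1-labelled replicate 2 (-2.49) lay below that of its pair (-2.12). Directions below therefore follow the labels. Without replicate 2 the Nr4a1 difference was 0.52 and passed the test. It also passed with median centring of all 8 arrays (0.40, adjusted p = 0.0167, limma), and in no more than these 2 of 16 other settings.

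EF-hand proteins bind calcium in a helix-loop-helix fold. Buffers such as calbindin, calretinin and parvalbumin take up calcium that enters during spikes and synaptic activity and so shape the size and length of the signal, while sensors such as hippocalcin, neurocalcin and visinin-like proteins change shape on binding and move to membranes through a myristoyl group. In the hippocampus, calbindin is known from dentate granule cells and some CA1 pyramidal cells and interneurons, calretinin from mossy cells, Cajal-Retzius cells and some interneurons, parvalbumin from fast-spiking interneurons, and hippocalcin from pyramidal cells.

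Nr4a1 binds DNA as a monomer at the NBRE, AAAGGTCA, so the promoters of the genes were searched for it. Promoter windows of 6 of the 10 genes (Pvalb, Necab2, Hpca, Hpcal1, Hpcal4 and Vsnl1) were in the RefSeq promoter table of GRCm38.p6, in 10 windows of 300 bases, from 250 bases before to 50 after a start. The NBRE, read on both strands, was in 0 of the 10 windows and in 1.51% of all 32851 windows. Its shorter AGGTCA part, which lies inside every NBRE and was searched after the NBRE count was known, was in 2 of the 10 windows and in 16.3% of all windows. The upstream 250 bases of both windows are shown because they hold that motif, in capitals and on the strand printed, and those of Necab2 because it is the only gene with both an entry and a difference that passed the test in its chosen probe. A match is a description of letters and not of binding, which was not measured.
Hpca, chr4:129121748-129121997, minus strand: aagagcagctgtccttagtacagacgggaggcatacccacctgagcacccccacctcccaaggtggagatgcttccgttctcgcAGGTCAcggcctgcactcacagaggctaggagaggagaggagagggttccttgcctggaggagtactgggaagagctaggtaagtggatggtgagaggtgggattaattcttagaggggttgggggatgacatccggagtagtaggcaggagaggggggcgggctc
Hpcal4, chr4:123183254-123183503, plus strand: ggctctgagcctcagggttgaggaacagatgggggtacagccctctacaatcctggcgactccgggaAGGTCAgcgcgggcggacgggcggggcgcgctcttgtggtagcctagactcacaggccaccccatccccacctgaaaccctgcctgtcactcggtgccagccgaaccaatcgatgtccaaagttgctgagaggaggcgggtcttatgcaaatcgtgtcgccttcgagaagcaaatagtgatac
Necab2, chr8:119446469-119446718, plus strand: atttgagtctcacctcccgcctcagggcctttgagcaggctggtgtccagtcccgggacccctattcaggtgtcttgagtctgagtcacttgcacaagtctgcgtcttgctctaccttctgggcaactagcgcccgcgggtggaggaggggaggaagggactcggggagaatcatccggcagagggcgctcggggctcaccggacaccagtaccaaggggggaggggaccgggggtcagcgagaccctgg
Counted from the gene's start in that window, the motif began at -166 in the Hpca window and at -183 in the Hpcal4 window. Hpca has 3 windows in the table, and the other 2 held no match.

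Of the 10 genes, 5 were lower on the Nr4a1-labelled arrays (Calb1, Calb2, Necab1, Necab2 and Ncald), 0 were higher and 5 did not pass the test (limma, adjusted p under 0.05 over all 21116 features). Over all features 11.5% were called lower and 12.9% higher. The same 5 genes were those whose 2 groups of arrays did not overlap, against 11.7% of all features lying wholly lower and 12.7% wholly higher. The median difference of the 10 genes was -0.19, and that of all features was -0.00352. In bulk RNA, fewer cells of a type and less RNA per cell cannot be told apart. At the level of probes, 7 of 15 were called lower and 0 higher, against 11.7% and 12.2% of all probes. Adjusted p-values and intervals below are those over features for each gene's chosen probe, the brightest in Cy5, and those over all probes for a second probe.

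**Figure D1:**
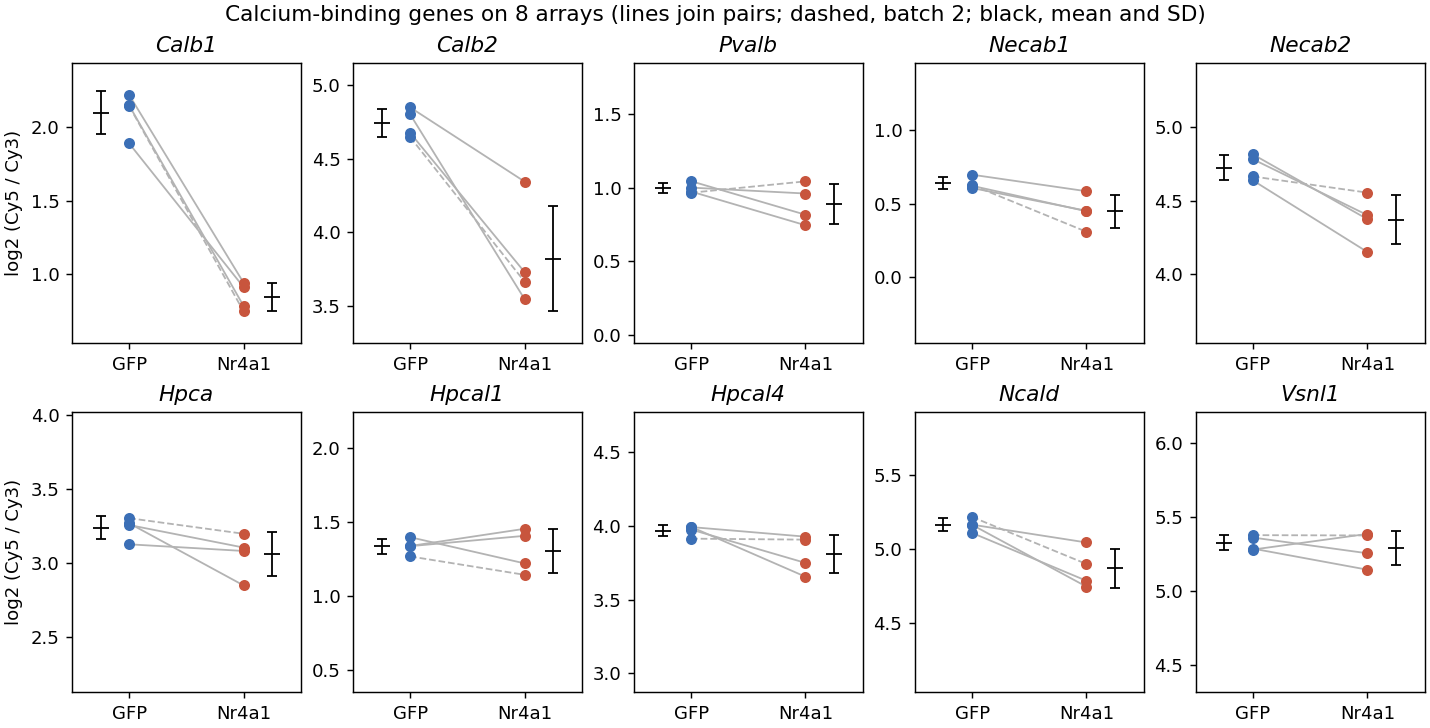
Level of each of the 10 genes on every array, as log2 of Cy5 over Cy3 for the chosen probe, with GFP-labelled arrays at left and Nr4a1-labelled arrays at right of each panel. Lines join pairs, dashed for batch 2, black marks give the mean and SD (n = 4), and every panel spans the same number of log2 units. Calb1 and Calb2 drop in all 4 pairs, and the points of Hpcal1 and Vsnl1 overlap between the groups.

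Calb1, the calbindin gene, had the largest difference of the 10 in the reported ratio, while Calb2 differed more in Cy5 alone (-1.56 against -1.27) and when the background step kept all spots (-1.49 against -1.44). In replicate order, its level was 1.89, 2.22, 2.14 and 2.14 in the GFP-labelled group against 0.91, 0.94, 0.79 and 0.75 in the Nr4a1-labelled group. Every Nr4a1-labelled array lay below every GFP-labelled array, and the SD within a group was 0.14 and 0.09. Calb1 fell by 1.25 ± 0.08, or 2.38-fold (95% interval of the difference -1.42 to -1.08, adjusted p = 3.729e-06, limma), with pairs at -0.97, -1.27, -1.36 and -1.39. The reference RNA was not well above background for Calb1 in any of the 8 hybridisations, so the denominator of this ratio lies near background. The Cy5 signal itself was well above background on all 8 arrays, with a mean raw signal of 290 in the GFP-labelled and 120 in the Nr4a1-labelled group. In the scanner software's own ratio, the Calb1 difference was -2.58 and passed the test. That ratio lacks the background correction used here in both channels and was centred on its median, and the part of each step was not tested. The call was lost where slide was fitted as a random block (-1.29, adjusted p = 0.474).

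Calb2, the calretinin gene, was the next. Its level was 4.80, 4.67, 4.85 and 4.65 on the GFP-labelled arrays and 3.55, 3.73, 4.34 and 3.67 on the Nr4a1-labelled arrays. The groups did not overlap, but Nr4a1-labelled replicate 3 lay well above the other three of its group, whose SD was 0.36 against 0.10 in the GFP-labelled group. Calb2 fell by 0.92 ± 0.10, or 1.89-fold (95% interval -1.15 to -0.69, adjusted p = 1.694e-04, limma), with pairs from -1.25 to -0.50. The call was lost in the software's own ratio (-0.37, adjusted p = 0.311), when the background step kept all spots (-1.49, adjusted p = 0.199) and with slide as a random block (-0.94, adjusted p = 1).

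Pvalb, the parvalbumin gene, did not pass the test by either of its probes. The chosen probe gave 1.00, 0.97, 1.04 and 0.97 on the GFP-labelled and 0.96, 0.74, 0.82 and 1.04 on the Nr4a1-labelled arrays, which overlap. The difference was -0.10 ± 0.07 (95% interval -0.26 to 0.05, adjusted p = 0.309, limma). The second probe differed by -0.03 ± 0.08 (95% interval -0.20 to 0.14, adjusted p = 0.844, limma) and had a reference signal that was not well above background in 8 of 8 hybridisations. The interval of the chosen probe leaves out a fall of the size seen for Calb1 or Calb2. That of the second probe cannot decide this, because the background step used here shrinks differences of dim probes. Its mean raw Cy5 signal was 80 in the GFP-labelled and 92 in the Nr4a1-labelled group.

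The NECAB genes code for neuronal proteins with an EF-hand at one end and a monooxygenase-like domain at the other, and Necab2 is known as a partner of adenosine and metabotropic glutamate receptors. Necab2 levels were 4.78, 4.64, 4.81 and 4.66 on the GFP-labelled and 4.40, 4.15, 4.38 and 4.56 on the Nr4a1-labelled arrays. The groups did not overlap, though Nr4a1-labelled replicate 4 came within 0.11 of its pair. Necab2 fell by 0.35 ± 0.07, or 1.28-fold (95% interval -0.51 to -0.19, adjusted p = 0.00622, limma). The call was lost in the software's own ratio (-0.30, adjusted p = 0.0714), when the background step kept all spots (-0.54, adjusted p = 0.240) and with a random slide block (-0.29, adjusted p = 1).

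Necab1 was a dim probe with a small difference. It gave 0.62, 0.61, 0.70 and 0.63 on the GFP-labelled and 0.45, 0.45, 0.58 and 0.31 on the Nr4a1-labelled arrays, with no overlap. Necab1 fell by 0.19 ± 0.06, or 1.14-fold (95% interval -0.32 to -0.05, adjusted p = 0.0469, limma), which is just inside the threshold. Its Cy5 signal exceeded background in all 4 arrays of the GFP-labelled group but in 2 of 4 of the Nr4a1-labelled group, and the reference signal did so in 0 of 8. The call was lost without the pair block (adjusted p = 0.0621) and when any replicate was left out (-0.15 without replicate 4 and -0.21 without replicate 3). In all it was lost in 10 of the 15 other settings in which Necab1 was tested.

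Among the sensors, Ncald, coding for neurocalcin delta, fell by its chosen probe. That probe gave 5.16, 5.16, 5.11 and 5.22 on the GFP-labelled and 5.04, 4.74, 4.78 and 4.90 on the Nr4a1-labelled arrays, with no overlap. The difference was -0.30 ± 0.07, or 1.23-fold lower (95% interval -0.44 to -0.15, adjusted p = 0.00916, limma). The second Ncald probe fell by 0.25 ± 0.07 (95% interval -0.40 to -0.09, adjusted p = 0.0266, limma), lower in all 4 pairs but with overlapping groups. The call of the chosen probe was lost in 7 of 16 other settings, among them without replicate 2 (-0.25, adjusted p = 0.0532), and it was -0.84 when the background step kept all spots (adjusted p = 0.377). That of the second probe was lost in 8 of 14 other settings. These were the software's own ratio (-0.03, adjusted p = 0.822), all spots kept (-0.73, adjusted p = 0.359), median centring (-0.22, adjusted p = 0.108), no pair block (adjusted p = 0.0802), batch as a block (adjusted p = 0.0678), a random slide block (-0.30, adjusted p = 1), and the fits without replicate 2 (-0.25, adjusted p = 0.0703) or replicate 4 (-0.18, adjusted p = 0.106).

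Hpca, coding for hippocalcin, a sensor of the slow afterhyperpolarisation and of long-term depression, gave different results by its 2 probes. The brighter, chosen probe gave 3.26, 3.13, 3.27 and 3.30 on the GFP-labelled and 3.10, 3.08, 2.85 and 3.20 on the Nr4a1-labelled arrays. These overlap, and the difference of -0.18 ± 0.07 did not pass the test (95% interval -0.34 to -0.02, adjusted p = 0.0974, limma). It was -0.10 without replicate 3 and -0.02 with median centring. The dimmer probe gave 2.28, 2.40, 2.20 and 2.10 against 1.60, 1.85, 1.55 and 1.64. These do not overlap, and it fell by 0.58 ± 0.06 (95% interval -0.72 to -0.44, adjusted p = 1.317e-04, limma), a call lost only with slide as a random block among 15 other settings (-0.55, adjusted p = 1). A test of the difference between the probes, brighter minus dimmer, added after the data were seen, gave 0.40 ± 0.07 (95% interval 0.23 to 0.57, adjusted p = 0.0247, limma over 3776 genes with 2 tested probes). Of those genes, 220, or 5.83%, had such a difference. The same comparison gave -0.07 for Hpcal1, -0.00278 for Hpcal4, -0.05 for Ncald and -0.08 for Pvalb, with adjusted p of 0.514, 0.990, 0.734 and 0.725 (limma). The authors' value table holds the dimmer Hpca probe and not the brighter, and there Hpca was lower by 0.58. With the mean of both probes Hpca was lower by 0.38 (adjusted p = 0.00196, limma).

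The other sensors did not pass the test in any of their probes in the reported ratio. Vsnl1, coding for visinin-like 1, gave 5.29, 5.36, 5.28 and 5.38 on the GFP-labelled and 5.14, 5.26, 5.39 and 5.38 on the Nr4a1-labelled arrays. The ranges of the groups overlap, with a difference of -0.04 ± 0.06 (95% interval -0.18 to 0.11, adjusted p = 0.723, limma). Hpcal1 levels were 1.397, 1.336, 1.337 and 1.267 against 1.220, 1.406, 1.454 and 1.142 by the chosen probe, with 2 pairs higher and 2 lower. Its 2 probes differed by -0.03 ± 0.07 (95% interval -0.18 to 0.12) and 0.04 ± 0.07 (95% interval -0.12 to 0.19). The signs of Hpcal1 and Vsnl1 turned with median centring (0.08 and 0.05). Vsnl1 was -0.23 in the software's own ratio (adjusted p = 0.0654, limma) and -0.58 when the background step kept all spots (adjusted p = 0.509, limma), and passed in neither. Hpcal4 gave 3.99, 3.98, 3.99 and 3.91 against 3.93, 3.75, 3.66 and 3.91, lower in 4 of 4 pairs with overlapping groups. Its difference was -0.16 ± 0.07 (95% interval -0.31 to -0.00403, adjusted p = 0.128, limma), and its second probe differed by -0.16 ± 0.07 (adjusted p = 0.148, limma). That second probe was called lower in 3 of 14 other settings. These were the software's own ratio (-0.44, adjusted p = 0.0399, limma), no background correction (-0.24, adjusted p = 0.0390, limma) and Cy5 alone.

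**Figure D2:**
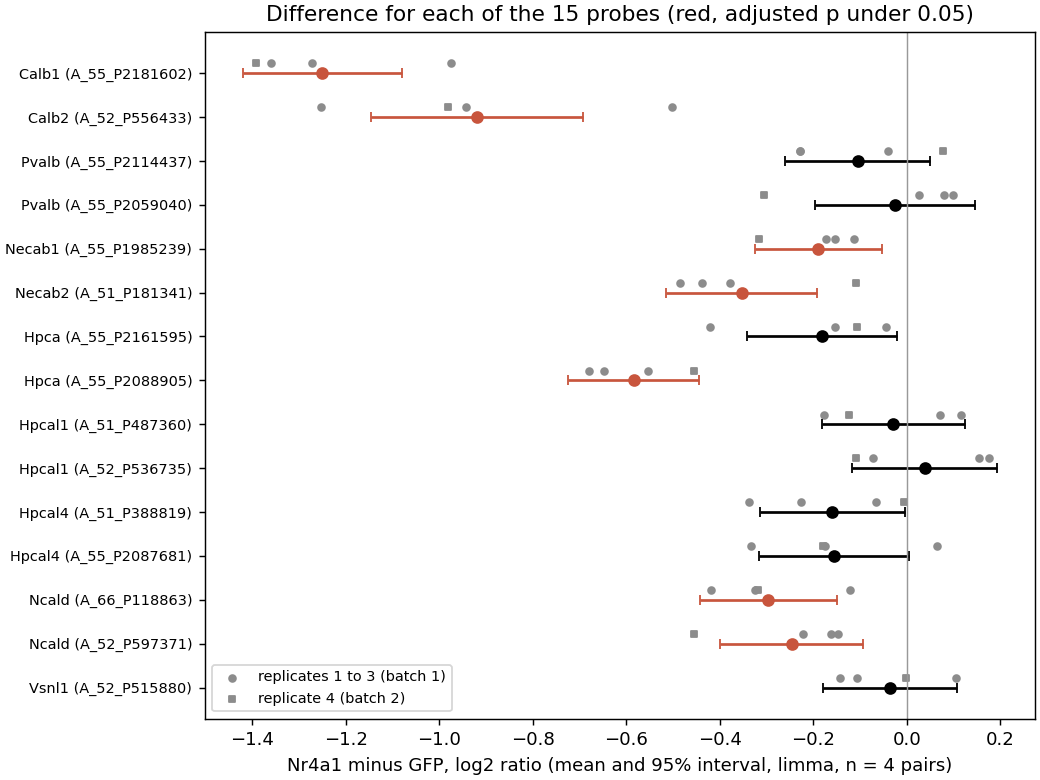
Difference (Nr4a1 minus GFP, log2 ratio) for each of the 15 probes, with the mean and 95% limma interval (n = 4 pairs) and the 4 pairs above it as grey points, squares for replicate 4 of batch 2. Red marks the 7 probes called lower. The 2 Hpca probes sit apart at -0.18 and -0.58, and both probes of Hpcal4 sit at -0.16.

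Since every ratio here divides by the same reference RNA, each dye channel was also fitted alone. For this each channel was corrected for background as in the ratios and then quantile-normalised across the 8 arrays. The ratios were instead scaled by loess within each array, so channel and ratio differences rest on unlike scalings. This comparison of the Cy3 channel was added after the data were seen. In Cy5 alone, the channel of the cultures, 9 of the 15 probes were called lower and 1 higher, against 14.8% and 14.2% of all probes. In Cy3 alone, where all 8 arrays carried the same RNA, 2 of the 15 were called lower and 1 higher, against 5.94% and 6.32% of all probes. Calb1 differed by -1.27 ± 0.11 in Cy5 (adjusted p = 7.417e-05, limma) and by 0.07 ± 0.06 in Cy3 (adjusted p = 0.432, limma). In Calb1 the Cy5 difference was as large as that of the ratio.

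For 3 genes the reference channel moved with the labels too. Calb2 differed by -1.56 ± 0.11 in Cy5 and by -0.51 ± 0.08 in Cy3 (adjusted p = 2.751e-05 and 0.0330, limma). Its Cy3 values were 7.03, 7.18, 6.94 and 7.17 on the GFP-labelled and 6.81, 6.56, 6.44 and 6.46 on the Nr4a1-labelled arrays, with no overlap. Necab2 differed by -0.80 ± 0.08 in Cy5 and by -0.43 ± 0.04 in Cy3 (adjusted p = 2.431e-04 and 0.0168, limma). Vsnl1 was higher in both channels, by 0.26 ± 0.08 in Cy5 and by 0.29 ± 0.04 in Cy3 (adjusted p = 0.0341 and 0.0330, limma), and its ratio difference was -0.04 ± 0.06. The slide differs with the labels in the same way, and its part in these Cy3 differences was not tested.

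The 2 Hpca probes were read in each channel side by side, and their difference was tested for the ratio and not within a channel. In Cy5 alone the brighter probe fell by 0.44 ± 0.12 and the dimmer by 0.44 ± 0.08 (adjusted p = 0.0284 and 0.00496, limma). In Cy3 alone they differed by -0.39 ± 0.12 and 0.13 ± 0.05, neither of which passed the test (adjusted p = 0.0819 and 0.106, limma). Hpcal4 was called lower in Cy5 alone by both probes, at -0.38 ± 0.08 and -0.30 ± 0.08, with Cy3 differences of -0.18 and -0.08 that did not pass. For Ncald the chosen probe was -0.21 ± 0.07 in Cy5 and did not pass (adjusted p = 0.0614, limma), and its Cy3 difference was 0.12 ± 0.05 (adjusted p = 0.177, limma). The second Ncald probe was called lower in Cy5, at -0.51 ± 0.09 (adjusted p = 0.00429, limma), and its Cy3 difference of -0.20 ± 0.05 did not pass (adjusted p = 0.0550, limma) although its Cy3 groups did not overlap.

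**Figure D3:**
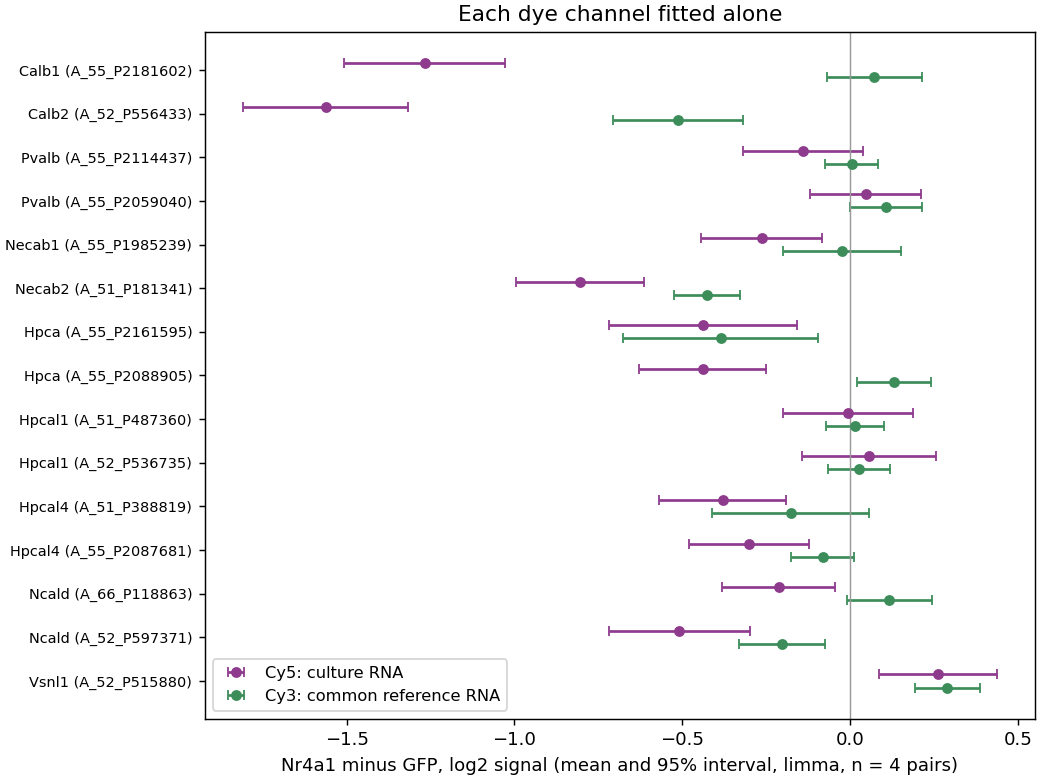
Difference (Nr4a1 minus GFP, log2 signal) of each probe in the culture channel (Cy5) and in the common reference channel (Cy3), each fitted alone, with 95% limma intervals (n = 4 pairs). Calb1 sits at -1.27 in Cy5 and 0.07 in Cy3, while Calb2, Necab2 and Vsnl1 are displaced from 0 in both channels.

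A further 7 lists of calcium-handling genes were counted beside these genes. Among the other buffers and secretagogin, 2 of 3 genes were tested and 0 passed. Among the other members of the neuronal calcium sensor family, 7 of 8 were tested, 1 was higher and 2 were lower. Kcnip1, an auxiliary subunit of Kv4 potassium channels, rose by 0.90 ± 0.06 (adjusted p = 7.782e-06, limma). Kcnip2, of the same subunit family, fell by 0.94 ± 0.07 (adjusted p = 1.019e-05, limma), and Ncs1, coding for neuronal calcium sensor 1, fell by 0.50 ± 0.07 (adjusted p = 4.996e-04, limma). The reference signal of Kcnip2 was well above background in 0 of 8 hybridisations, and its difference was -0.36 in the software's own ratio (adjusted p = 0.540, limma). The list's median was -0.02.

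Of the calmodulin and CaBP genes, 8 of 12 were tested, 1 was higher and 2 were lower, with a median of -0.09. Calm2, 1 of the 3 genes for calmodulin, fell by 0.32 ± 0.06, Cabp1 fell by 0.34 ± 0.11 and Calml4 rose by 0.34 ± 0.07. Cabp1 was just inside the threshold (adjusted p = 0.0494, limma), with 1 of 4 pairs higher and overlapping groups. Of the S100 genes, 10 of 15 were tested and 1 passed, S100a10, which binds annexin A2 and fell by 0.31 ± 0.06. Of the calcium-binding proteins of the ER and Golgi lumen, 10 of 13 were tested and 1 passed, Rcn1 for reticulocalbin 1, which rose by 0.40 ± 0.06. The list of other EF-hand proteins, which also holds mitochondrial Micu genes and Letm1, had 3 of 16 higher (Cib2, Efhd1 and Gca) and 4 lower (Tesc, Cetn2, Sri and Micu3). Efhd1 was lower in 1 of 4 pairs (adjusted p = 0.0434, limma), and the reference signal of Gca was well above background in 0 of 8 hybridisations. Tesc, coding for tescalcin, fell by 0.55 ± 0.07, Cetn2, for the centriole protein centrin 2, by 0.32 ± 0.06, and Cib2 rose by 0.30 ± 0.06. Of the 14 calcium pumps and exchangers of the plasma membrane, the ER and mitochondria, all tested, 0 passed the test, with a median of -0.05. Beside these counts stand the same 11.5% lower and 12.9% higher over all features.

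All named genes of these lists lost their calls under a random slide block and when the background step kept all spots. Kcnip2 and Sri lost theirs in the software's own ratio as well, Calm2, S100a10, Sri and Cetn2 with median centring, Calm2, Rcn1, Cib2 and Sri in Cy5 alone, and Sri without replicate 4. Kcnip1 was down to 0.35 when all spots were kept, and Calml4 was up to 0.91 in the software's own ratio. That statement leaves out Cabp1, Gca, Efhd1 and Micu3, named after their values were seen, for which other settings were not computed.

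**Figure D4:**
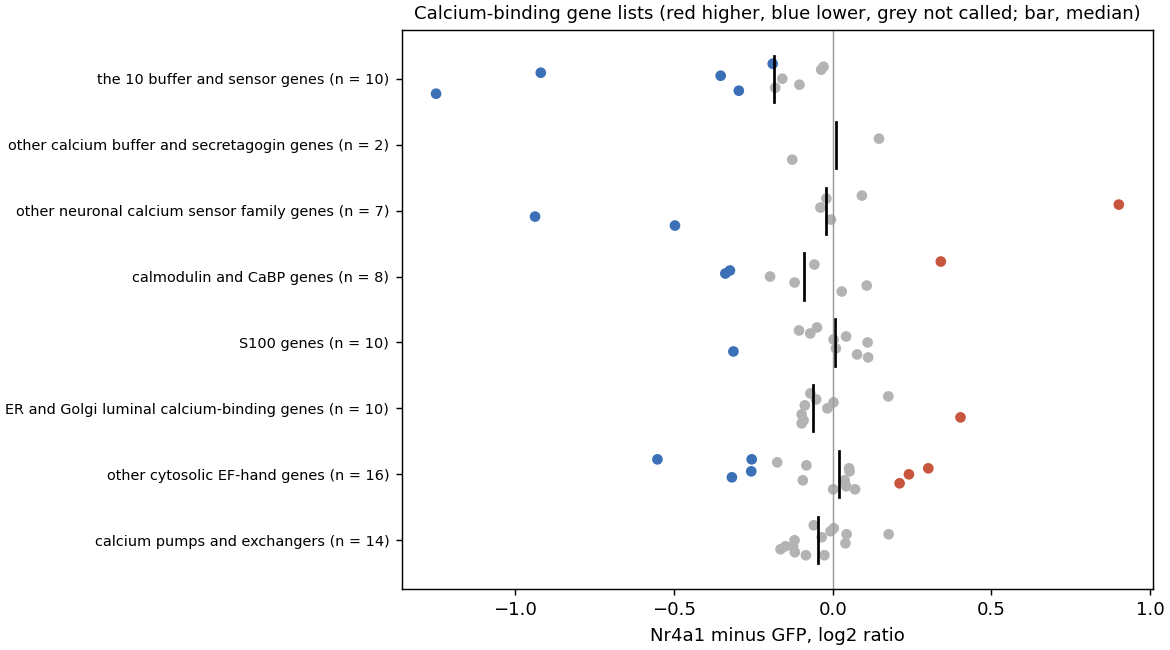
Differences (Nr4a1 minus GFP, log2 ratio) of the 10 genes and of the tested genes of 7 further calcium-handling lists, 1 point a gene, red called higher, blue called lower and grey not called, with a bar at the list's median. The 10 genes lie at or below 0 with a median of -0.19, and the 14 pumps and exchangers lie near 0 with 0 called.

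The genes whose levels followed Calb1 and Calb2 most closely over the 8 arrays were named by Pearson's r among 14978 named genes. For Calb1 they were Socs2 (r = 0.994), Eya2 (r = 0.992) and Sostdc1 (r = 0.990), which differed by -0.84, -0.41 and -1.34. For Calb2 they were Sbsn (r = 0.979), Sox13 (r = 0.978) and Pim2 (r = 0.976), which differed by -0.23, -0.18 and -0.39. All 8 arrays share the reference RNA and the slides, and the 2 groups make most of the spread, so r is a description. The calls of all 6 were lost under a random slide block, those of all but Socs2 when the background step kept all spots, those of Sbsn and Sox13 in several further settings, and Sox13 turned to 0.13 in Cy5 alone.

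Because several of these genes mark cell types, markers of the cells such a culture could hold were read beside them. Each count stands against 11.5% lower and 12.9% higher over all features, and all lists but those of CA pyramidal cells and the oligodendrocyte lineage had 0 to 2 calls in each direction. Of 7 CA pyramidal markers tested, 5 were lower and 2 higher. Spink8 fell by 1.03 ± 0.08, Rgs14 by 0.97 ± 0.06, Fibcd1 by 0.67 ± 0.08, Pcp4 by 0.36 ± 0.07 and Amigo2 by 0.31 ± 0.10. The Cy5 signal of Fibcd1 exceeded background in 2 of 4 Nr4a1-labelled arrays, and its reference signal did so in 0 of 8. Amigo2 was higher in 1 of 4 pairs, with overlapping groups (adjusted p = 0.0408, limma). Wfs1 rose by 0.80 ± 0.07 and Pou3f1 by 0.57 ± 0.09. The summed Cy5 signal of the 7 was 85948.5 to 104208 on the GFP-labelled and 54895 to 74278.5 on the Nr4a1-labelled arrays, with no overlap. Summed signals here and below are raw, not normalised between arrays, and the brightest probes weigh most. The call of Spink8 was lost in the software's own ratio (-0.28). Of 5 dentate granule markers, 1 was lower (Dsp) and 0 higher, with summed signals of 1585 to 2334.5 against 1214 to 2182. Of 4 mossy cell markers tested, 1 was lower (Ociad2, a call lost in 11 of 16 other settings, also without replicate 1, 2 or 3), with Calcrl above background on 2 of 8 arrays and summed signals of 18866 to 26766.5 against 18207 to 27889. Of 6 Cajal-Retzius markers, 1 was higher (Lhx5, a call lost in 6 of 15 other settings, also without replicate 3 or replicate 4) and 1 lower (Cxcr4), with summed signals of 882.5 to 1119.5 against 865 to 1179.

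Of 10 GABAergic interneuron markers, 2 were higher (Dlx1 by 0.41 ± 0.07 and Dlx2 by 0.33 ± 0.06) and 1 lower (Sst), with summed signals of 64154 to 106458 against 60844 to 88625. Of 7 pan-neuronal markers, Eno2 was higher and Syt1 lower (calls lost in 3 and 7 of 16 other settings, for Syt1 also without replicate 1 or replicate 3), with summed signals of 282140 to 349613 against 230579 to 343142, and 7 of 7 passed the filter on dim probes. Of 5 oligodendrocyte lineage markers, 3 were higher (Pdgfra by 0.75 ± 0.06, Olig2 and Sox10) and 1 lower (Mbp, which fell by 0.94 ± 0.09), with summed signals of 2495 to 3805 against 2283 to 3901. Of 7 astrocyte markers, 1 was higher (Aqp4, which turned to -0.10 in the software's own ratio and -0.21 when the background step kept all spots), with summed signals of 172597 to 246489 against 185739 to 271156. The Aqp4 call was also lost in the authors' table (0.09, adjusted p = 0.510, limma) and with the mean of its probes (0.26, adjusted p = 0.0625, limma).

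Of the microglia markers 3 of 6 were tested and Csf1r was lower, with P2ry12 above background on 0 arrays, Cx3cr1 on 1 and C1qa on 2. Their summed signals were 3093.5 to 4802.5 against 2096.5 to 3054 for the tested genes, also with no overlap. Of the endothelial markers 3 of 4 were tested and Flt1 was higher, with Cdh5 above background on 0 arrays. The summed signals of those tested were 322.5 to 376 against 419 to 505, again with no overlap. Of 4 fibroblast markers Dcn and Lum were lower, with summed signals of 3276 to 4366.5 against 2779 to 4057.5. The calls of Spink8, Dlx1, Dlx2 and Pdgfra were lost when the background step kept all spots and those of Rgs14 and Mbp were not, and all 6 were lost under a random slide block. Other settings were not computed for Fibcd1, Pcp4, Amigo2, Wfs1, Pou3f1, Sst, Olig2 and Sox10. The part of these markers' changes in the differences of the calcium-binding genes was not tested.

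**Figure D5:**
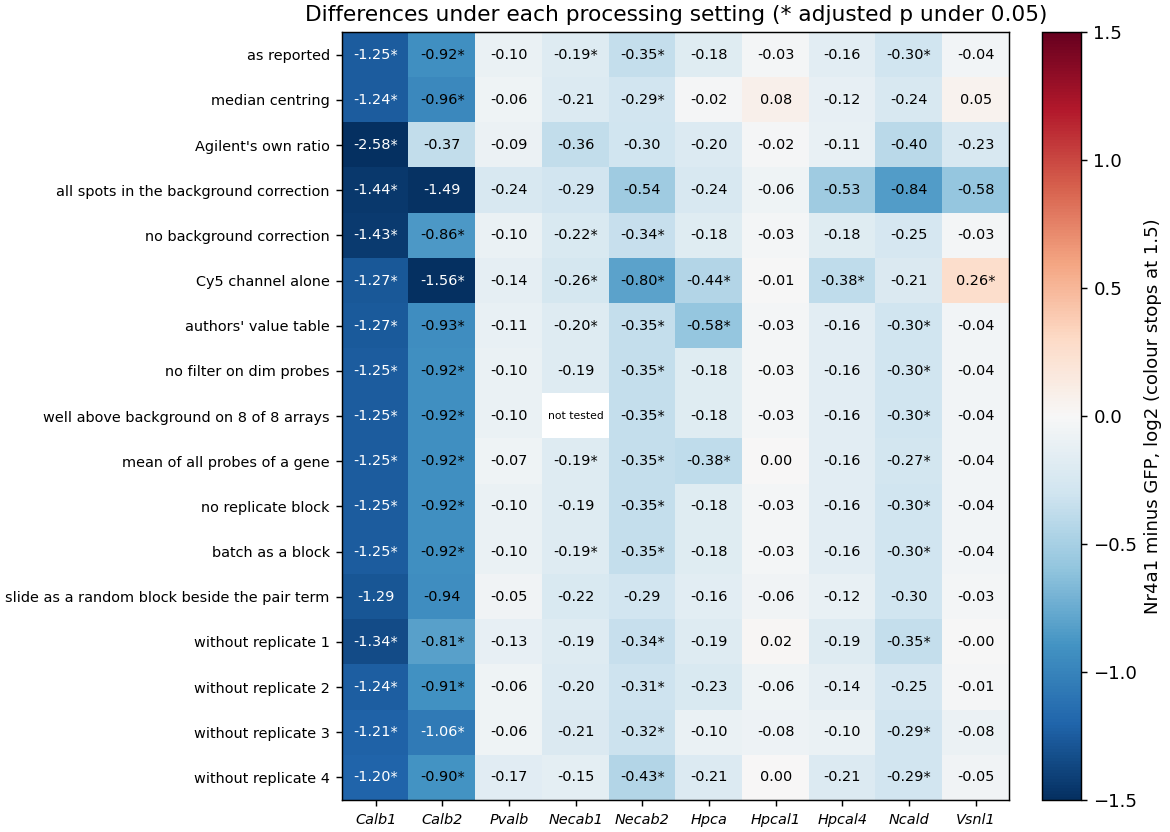
Difference (Nr4a1 minus GFP, log2) of each of the 10 genes in the reported analysis and in 16 other processing settings, with an asterisk where the adjusted p was under 0.05 and the colour scale stopping at 1.5. Calb1 keeps its call in every row except the one with slide as a random block, in which none of the 10 genes passes. Slide and group cannot be told apart, so that row cannot decide on a single gene.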

How the data were processed

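RNA of mouse hippocampal cultures was compared on 8 two-colour Agilent arrays, 4 per group. Per the file headers, Agilent Feature Extraction 11.0.1.1 gave the authors' median signal and local background intensity per spot and a log10 ratio of Cy5 over Cy3. The authors also deposited a table of log2 ratios of 24275 probes, with column medians from 0.0240 to 0.0312. Its scale and direction were read from its correlation, array by array, with the log2 ratios computed here (0.998 to 1.00). The submitters' processing notes name limma, with settings not given in the sources used here.

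Here median signals were corrected by normexp with offset 50, which shrinks differences of dim probes, after spots with a non-uniform local background were left out (37 on Nr4a1-labelled replicate 2, 0 to 9 on the others), and scaled by loess within each array, with control spots at weight 0. Outlier spots were dropped and spots of a probe averaged. Testing required a Cy5 signal marked well above background by the software in 4 or more of 8 arrays and 3 values per group, and the brightest probe stood for a gene. Accessions were named through a RefSeq table (GRCm38.p6), which matched 26581 of 39429 probes. limma 3.58.1 in R 4.3.3 fitted group with pair as a fixed block, two-sided, with Benjamini-Hochberg adjustment over all features, and was tested on simulated data. Arrays deviated together within pairs at r = -0.10, 0.28, -0.016 and 0.43, and the block rests on the labels' pair tag. Named genes were the 10 members with every probe, up to 4 per calcium list and 2 per marker list of smallest p with the same sign in all pairs, Nr4a1, and the 3 most alike genes of Calb1 and Calb2. Others were named after their values were seen, and 2 markers are not reported here and were left out of their lists. The members, lists and settings were chosen with earlier results of these data known. The number of arrays limits the precision. Alternatives tried were median centring, Agilent's own ratio, all spots in the correction, no correction, each channel alone, the authors' table, other probe filters, the mean of probes, no block, batch or slide as a block, and leaving out each replicate.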

Additional observations from a re-analysis of the deposited data

Results flagged for a closer look

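The second Pvalb probe was read at 0.51 on Nr4a1-labelled replicate 4, the only array of batch 2 in that group, while the other 3 arrays of the group gave 0.73, 0.76 and 0.74. The gap to the nearest of the others took 0.867 of the group's whole range, which is above Dixon's 95% limit for 4 samples. This was the only such value among 30 groups of 4 arrays looked at for these genes, and chance alone flags about 1 in 20 groups. The reference signal of this probe did not rise well above background, and the chosen Pvalb probe was at 1.04 on the same array, the highest of its group.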

How the results depend on the processing

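Of the 16 other settings, Calb1 was called lower in 15, Calb2 and Necab2 in 13, Ncald in 9 and Necab1 in 5 of the 15 in which it was tested. The count of the 10 genes called lower, 5 as reported, was 3 with median centring, 1 in Agilent's ratio, 1 when the background step kept all spots and 0 under a random slide block (consensus correlation 0.863), and 3 to 4 when each replicate was left out in turn. It was 4 with no replicate block, where Necab1 did not pass (adjusted p = 0.0621, limma), and the block changed no other call of the 10 genes. In Cy5 alone 6 were called lower, with Hpca and Hpcal4 gained and Ncald lost. There 1 gene was called higher, Vsnl1, against 0 as reported. The count called lower was also 6 in the authors' table and with the mean of probes, with Hpca gained in both. Features called higher and lower, 2714 and 2434 as reported, were 1510 and 1351 in Agilent's ratio, 128 and 99 with all spots, 8 and 4 with the slide block, and 1783 to 2601 higher and 1636 to 1993 lower when each replicate was left out. With median centring 3461 were higher and 1263 lower, 73.3% of calls higher against 52.7%, while the median of all features moved from -0.00352 to 0.0593. The cause of each change was not tested. With no slide holding both groups, the slide block cannot separate slide from group, so its lost calls decide nothing about a single gene. The setting with all spots brings back 37 spots on Nr4a1-labelled replicate 2 and 0 to 9 on each other array.

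Signs that turned were those of differences near 0 or of 2 other genes. Hpcal1 was 0.0779 with median centring and 0.0045 with the mean of probes, and ran from -0.0774 to 0.0206 when each replicate was left out. Vsnl1 was 0.0534 with median centring and 0.26 in Cy5 alone. The second Hpcal1 probe, 0.04 as reported, was -0.0166 in Agilent's ratio, -0.14 with all spots and -0.0024 with the slide block, and ran from -0.0083 to 0.0867 when each replicate was left out. The second Pvalb probe was 0.11 with no background correction and 0.0455 in Cy5 alone, and ran from -0.0665 to 0.0681 when each replicate was left out. Aqp4 was -0.10 in Agilent's ratio and -0.21 with all spots, and Sox13 was 0.13 in Cy5 alone. Batch 2 holds 1 pair, too few for a value of its own, and batch 1 is the setting without replicate 4. A signal near background limits Necab1 in Cy5, and Calb1, Necab1 and the second probes of Pvalb and Hpcal4 in Cy3.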
